A study of Homo sapiens with 208 samples.

Results

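TGFB1, TGFB2, TGFBR2, SMAD6, SMAD7, SKIL, ID1, ID2 and ID3, a set of 9 genes of TGF-beta and BMP signaling, were followed in 2 lung cancer cell lines over 24 h. The members were the genes in a fixed list whose RefSeq accessions are carried by probes of the array, 11 probes in all, out of 16961 genes with a probe. This list was made with earlier results of these data known. Of these 9 genes, 8 passed the filter on dim probes and were tested among 13263 genes, and ID2 was followed on its brighter probe instead. PC9 is a human lung adenocarcinoma line whose EGFR carries an activating deletion, and it is sensitive to the EGFR kinase inhibitor gefitinib. PC9M2, named PC9GRM2 in the labels, is a single gefitinib-resistant line derived from PC9 cells grown with the drug. All cells were starved for 48 h and then received no treatment, 0.5 μM gefitinib given before the 0 h sample, 100 ng/ml EGF from 0 h, or both agents. RNA was taken at 26 time points (0, 0.5 and 1 h, then each hour to 24 h), which gave 8 time courses with 1 array at each time point. No time point was repeated, and the matched time points of 2 courses served as the replicates (n). The labels do not say whether they came from separate cultures, so p-values measure only the spread between these samples, which may be technical.

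TGF-beta ligands bind the receptor TGFBR2, which recruits TGFBR1 and leads to phosphorylation of SMAD2 and SMAD3, while BMP ligands act through SMAD1 and its relatives. SMAD6 and SMAD7 are inhibitory SMADs that the pathway itself induces, and SKIL (SnoN) is a corepressor of SMAD-driven transcription. ID1, ID2 and ID3 encode helix-loop-helix proteins without a DNA-binding domain that hold basic helix-loop-helix factors off DNA, and they are classic BMP targets that growth factors and ERK signaling also induce.

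The arrays were first checked for their labels. DUSP6, a phosphatase gene induced by ERK signaling, lay between 12.82 and 13.93 (log2 signal) on the untreated PC9 arrays and between 5.00 and 9.32 with gefitinib. In PC9M2 without the 0.5 h arrays it lay between 12.00 and 13.89 with EGF and between 7.51 and 11.53 with EGF and gefitinib. At 0.5 h, the PC9M2 array labelled EGF had 7.75 and the array labelled EGF and gefitinib had 12.54. These 2 arrays go against their labels. They were left under their labels. Calls and named differences of the tested probes that use these courses are also given without the 0.5 h time point. The 6 epithelial markers were well above background on all arrays, and the 4 fibroblast markers with a probe, of which 1 was above it on 0 arrays, were so on a minority; the fibroblast course medians summed to 17.2 to 17.7 signal units over the courses, against 184205 to 367924 for the epithelial markers. The 4 haematopoietic markers summed to 146 to 223. PTPRC was near background, 2 of the 4 were well above it on a minority of arrays and 1 on all arrays. Their highest course median was 7.11 (log2). The 3 endothelial markers summed to 303 to 1262. CDH5 was near background, and 1 of the 3 was well above it on a minority of arrays, but the highest course median of this group was 10.02. The haematopoietic and endothelial markers are thus not all dim. Their part in the results was not tested.

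The promoters of 3 members are shown first, as 250 bases before the start of transcription (RefSeq, GRCh38.p14). ID1 and ID3 are the ID genes that fell with gefitinib, and SMAD6 is the member whose window holds the palindromic SMAD motif. Capitals mark the matches found by a search of both strands for 7 motifs. These were GGCGCC (a GC-rich SMAD motif, held by 16.4% of the 35116 promoters in the table), CAGACA (SMAD, 13.6%), GTCTAGAC (palindromic SMAD, 0.182%), GCGTGGGCG (EGR, 0.72%), TGACGTCA (cyclic AMP response, 1.65%), TATAAA (10.7%) and CCAAT (32% of promoters). The last of these motifs and TATAAA were added after the other results of the search had been seen.
ID1, chr20:31605039-31605288, plus strand: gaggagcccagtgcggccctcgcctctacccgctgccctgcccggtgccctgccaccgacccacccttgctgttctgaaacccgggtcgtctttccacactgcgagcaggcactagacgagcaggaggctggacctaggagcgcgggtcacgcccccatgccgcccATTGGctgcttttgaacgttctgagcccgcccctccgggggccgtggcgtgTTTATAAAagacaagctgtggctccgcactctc
ID3, chr1:23559502-23559751, minus strand: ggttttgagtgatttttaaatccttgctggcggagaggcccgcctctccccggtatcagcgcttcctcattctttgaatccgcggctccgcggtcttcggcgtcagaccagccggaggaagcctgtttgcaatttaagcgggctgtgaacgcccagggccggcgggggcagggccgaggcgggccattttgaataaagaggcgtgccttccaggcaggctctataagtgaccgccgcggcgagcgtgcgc
SMAD6, chr15:66701986-66702235, plus strand: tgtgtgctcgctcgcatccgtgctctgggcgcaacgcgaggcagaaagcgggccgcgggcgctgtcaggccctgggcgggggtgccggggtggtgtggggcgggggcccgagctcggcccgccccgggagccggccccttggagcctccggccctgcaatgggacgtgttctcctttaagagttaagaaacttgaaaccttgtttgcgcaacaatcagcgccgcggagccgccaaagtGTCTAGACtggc
In ID1 the capitals are a CCAAT motif on the opposite strand, 84 bases before the start, and overlapping TATAAA motifs on both strands 33 and 31 bases before it. None of the 7 motifs is in the ID3 window. SMAD6 holds the palindromic SMAD motif 12 bases before its start. Among the windows not shown, that of SKIL held GGCGCC and TGACGTCA, that of TGFB1 the EGR motif, that of TGFB2 CAGACA and TATAAA, those of TGFBR2 CCAAT, 1 of SMAD7 TATAAA, and that of ID2 CCAAT 3 times. A match is a description of the letters and not of binding.

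With gefitinib alone, PC9 cells had less ID1 and ID3 RNA at each of the 26 time points, while in PC9M2 ID1 was lower in the first hours and near the untreated level later. In PC9 limma called 7 of the 8 tested members, 1 higher and 6 lower, beside 72.3% of all tested genes. In PC9M2 it called 2, both lower, beside 66.7% of all genes; with scaling to the 75th percentile it called 4, and with scan day as a random block or time points 3 h apart 1. The median difference of the 8 members was -0.56 in PC9 and -0.00049 in PC9M2, and over all tested genes it was -0.02 and -0.0076. Over all tested genes 35.1% were called higher and 37.2% lower in PC9, and 32.6% and 34.2% in PC9M2. The share of members called was near that of all genes in PC9 and below it in PC9M2. There the count varied from 1 to 4 with the processing. The members were chosen with earlier results of these data known, so the counts are not a result about the members.

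ID1 on untreated PC9 arrays ranged from 9.91 through a median of 10.68 to 11.87 (log2 signal, n = 26). With gefitinib it ranged from 8.32 through 8.73 to 10.15. The courses overlapped as a whole, but at each matched time point the gefitinib array was the lower one. ID1 fell by 1.82 on the log2 scale (3.53-fold, standard error 0.09, adjusted p = 4.02e-16), by between 1.03 and 2.64 at single time points. The fall was present on 8 of 8 scan days. ID1 in untreated PC9M2 ranged from 12.78 through 13.29 to 14.24, and with gefitinib from 10.84 at 0 h through 13.16 to 13.57. These courses overlapped except in the first hours. The mean difference was -0.43 (standard error 0.16, adjusted p = 0.0208, lower at 17 of 26 time points). With the scan day as a random block it was -0.44 with an adjusted p of 0.0558, so that this call is lost.

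The time course of ID1 differed between the lines. From 0 to 1 h gefitinib lowered ID1 by a mean of -1.62 ± 0.22 (SD, n = 3) in PC9 and -2.59 ± 0.30 in PC9M2. From 5 to 12 h the differences were -1.57 ± 0.38 (SD, n = 8) and -0.15 ± 0.36, and from 13 to 24 h they were -2.18 ± 0.24 (SD, n = 12) and -0.04 ± 0.21. In PC9 the difference was widest late, and in PC9M2 the late differences scattered around 0. These windows were chosen after the values were seen. The slope of the gefitinib difference was -0.04 per h for PC9 (adjusted p = 9.57e-05) and for PC9M2 0.07 per h (adjusted p = 0.00123). Over all genes 52.2% had such a trend in PC9 and 41.1% in PC9M2; of the 8 members 6 did in PC9 and 4 in PC9M2. The slopes of ID1 differed by 0.11 per h between the lines (standard error 0.02, adjusted p = 4.56e-06) in a test added after the data were seen, which called 18.3% of all genes. It also called TGFB2 (0.09, adjusted p = 0.0129) and SMAD6 (-0.05, adjusted p = 0.0375) among the members. With time points 3 h apart the slopes of ID1 were -0.03 per h for PC9 (adjusted p = 0.203) and 0.07 per h in PC9M2 (adjusted p = 0.113), and both calls are lost; with normexp background correction the PC9 slope was -0.02 (adjusted p = 0.00473). The slopes of DUSP6 had the same signs, -0.17 and 0.11 per h, with mean differences of -6.80 and -2.17. In PC9M2 with gefitinib DUSP6 was 7.76 at 0 h and 8.02 at 1 h. Its median over the course was 11.71 against 13.26 untreated (n = 25, without 0.5 h), so its level came back in part. Time and scan day cannot be told apart in these courses, since each scan day held neighbouring time points.

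**Figure D1:**
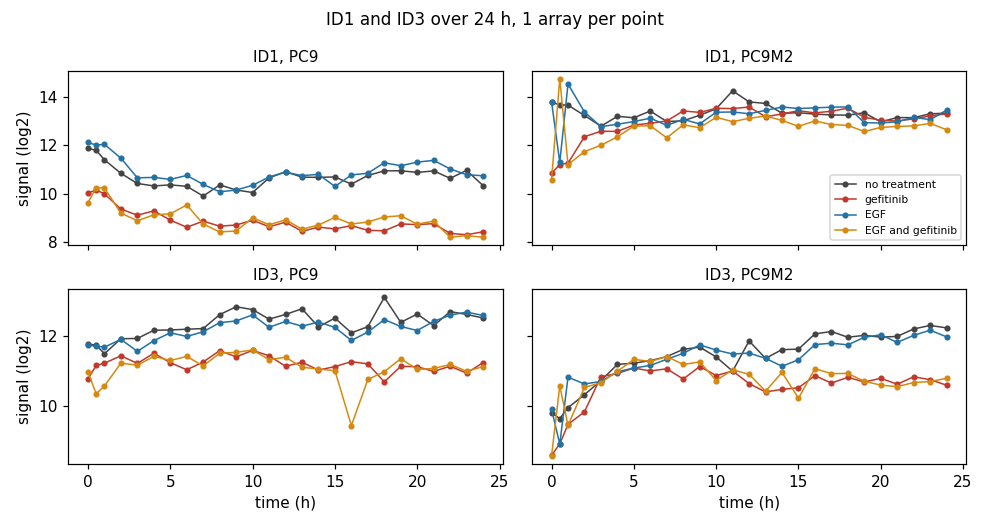
Log2 signal of ID1 and ID3 (vertical axis) against time in h (horizontal axis) in PC9 and PC9M2, 1 array per point, with a line for each of the 4 treatments. ID1 with gefitinib stays below the untreated course in PC9 and meets it within hours in PC9M2, and the PC9M2 arrays labelled EGF and labelled EGF and gefitinib at 0.5 h lie at each other's level.

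ID3 untreated ranged from 11.50 through 12.35 to 13.12 in PC9 and with gefitinib from 10.69 through 11.21 to 11.59. In PC9M2 the untreated range was 9.64 through 11.62 to 12.31, against 8.58 through 10.76 to 11.13 with gefitinib. The courses barely overlapped in PC9 and overlapped over much of their ranges in PC9M2, where ID3 was low in both at the start. The mean fall of ID3 was a difference of -1.16 in PC9 (standard error 0.09, adjusted p = 3.9e-12), seen at all 26 time points. In PC9M2 the difference was -0.87 (standard error 0.10, adjusted p = 1.06e-08) with 24 of 26 time points lower. It was lower on 8 of 8 scan days in PC9 and on 9 of 9 in PC9M2. In PC9M2 the ID3 difference was -0.81 ± 0.37 (SD, n = 3) from 0 to 1 h and -0.21 ± 0.30 (n = 3) from 2 to 4 h. From 5 to 12 h it was -0.49 ± 0.40 (n = 8). Unlike ID1, ID3 in PC9M2 was not near its untreated level late. From 13 to 24 h its difference was -1.43 ± 0.39 (SD, n = 12) in PC9 and -1.29 ± 0.20 in PC9M2. The slopes were -0.04 and -0.05 per h. The difference between these slopes was -0.0098 (adjusted p = 0.669).

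ID2 was dim. Its probe with the largest variance was well above background on 41 arrays of the 8 courses and was not tested. The other probe was well above background on 113 arrays. On it, untreated ID2 ranged from 4.04 through 4.80 to 5.70 in PC9 and from 2.11 through 3.78 to 4.94 in PC9M2; with gefitinib the ranges were 4.30 through 5.38 to 6.01 and 2.21 through 4.11 to 4.89. In a fit over all 19800 probes that passed the filter, which called 72% of them, the ID2 difference with gefitinib in PC9 was 0.43 (standard error 0.10, adjusted p = 0.000369). In these courses 18 untreated arrays and 25 with gefitinib were well above background, so part of this difference rests on bounds. The dimmer probe had medians of 4.12 untreated and 3.99 with gefitinib in PC9, which do not show this difference. Of the 26 arrays of each PC9M2 course, 6 untreated and 10 with gefitinib were well above background for ID2, so most of its values there are bounds and no difference is given.

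Among the ligands, TGFB1 untreated ranged from 5.48 through 6.61 to 7.82 in PC9 and from 7.10 through 8.08 to 8.85 in PC9M2. With gefitinib it ranged from 5.97 through 7.12 to 7.84 and from 7.38 through 8.23 to 8.53. The courses within a line overlapped over most of their ranges. TGFB1 rose with gefitinib in PC9 by 0.44 with a standard error of 0.15 (adjusted p = 0.00943), being higher at 19 of 26 time points, and the difference in PC9M2 was 0.19 (adjusted p = 0.083). In PC9 the difference was -0.29 ± 0.41 (SD, n = 3) from 0 to 1 h and 0.95 ± 0.63 (n = 12) from 13 to 24 h, with a slope of 0.08 per h (adjusted p = 6.17e-06). It was positive on 5 of 8 scan days. At time points 3 h apart the mean difference was 0.44 with an adjusted p of 0.217, and the call is lost. With normexp it was 0.12 (adjusted p = 0.0361).

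TGFB2 untreated ranged from 5.54 through 6.56 to 7.49 in PC9, and with gefitinib from 3.34 at 16 h through 5.83 to 6.67. It fell by 0.82 (standard error 0.19, adjusted p = 0.000302) and was lower at 22 of 26 time points and on 7 of 8 scan days. With normexp background correction the difference was -0.23 (adjusted p = 0.000294). From 13 to 24 h the difference was -1.41 ± 1.03 (SD, n = 12). In PC9M2 the ranges were 4.05 through 5.44 to 7.68 untreated and 3.44 through 5.69 to 6.59 with gefitinib, and they covered each other almost wholly. The difference there was 0.05 (adjusted p = 0.729). Another probe, which the newer array annotation on 4 of the arrays assigns to TGFB2, had medians of 9.68 untreated and 9.54 with gefitinib in PC9, and 10.30 and 10.71 in PC9M2. The probes of TGFB2 thus disagree on the order of the lines.

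TGFBR2, the receptor that binds TGF-beta, untreated ranged from 5.99 through 6.88 to 7.53 in PC9 and with gefitinib from 5.51 through 6.25 to 7.26. It fell by 0.58 with a standard error of 0.08 (adjusted p = 5.1e-07), lower at 24 of 26 time points, and on its other, brighter probe by 0.40 (adjusted p = 6.47e-05). With normexp the tested probe gave -0.36 (adjusted p = 0.000178). In PC9M2 the ranges were 5.62 through 6.67 to 7.76 and 5.74 through 6.62 to 7.24. They did not separate, and the difference was -0.08 (adjusted p = 0.305).

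**Figure D2:**
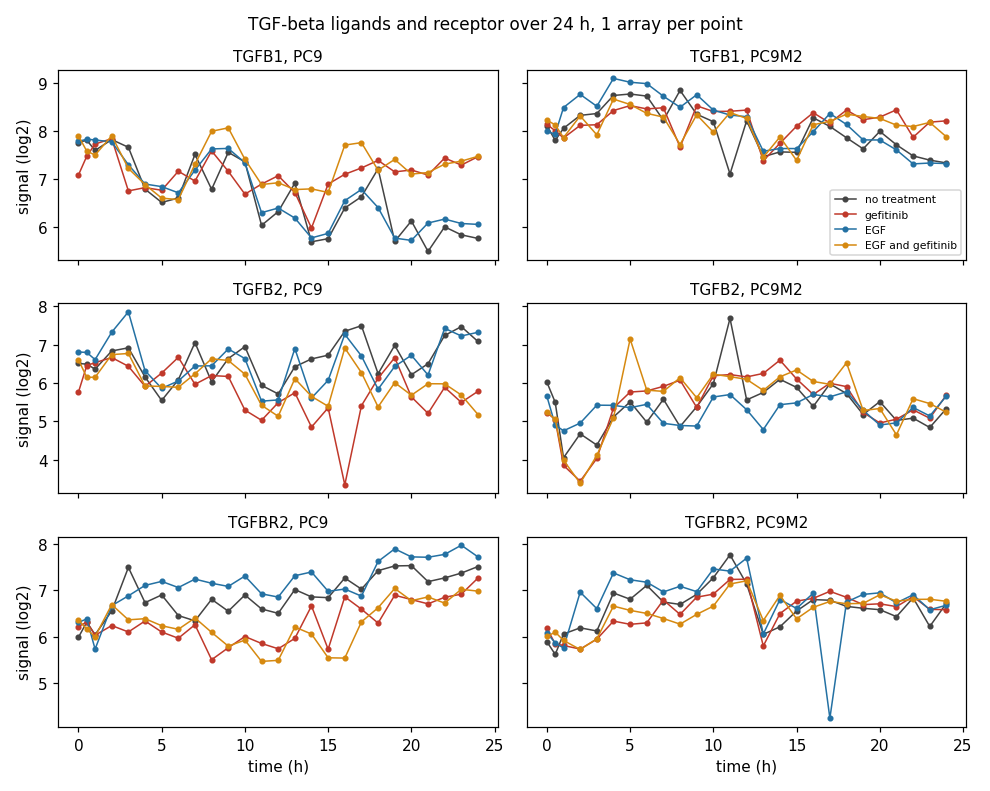
Log2 signal of TGFB1, TGFB2 and TGFBR2 (vertical axes) against time in h (horizontal axis) in PC9 and PC9M2, 1 array per point, 4 treatments. TGFB1 lies higher in PC9M2 than in PC9, and TGFBR2 in PC9 lies lower with gefitinib from about 2 h on, by -0.70 from 2 to 4 h.

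Of the inhibitors, SMAD7 untreated ranged from 8.42 through 9.04 to 9.91 in PC9 and from 8.00 through 8.99 to 9.56 in PC9M2. With gefitinib it ranged from 8.28 through 8.81 to 9.36 and from 7.94 through 9.18 to 10.08. The most negative differences lay at the start in both lines. From 0 to 1 h the difference was -1.22 ± 0.16 (SD, n = 3) in PC9 and -1.004 ± 0.09 in PC9M2, while from 5 to 12 h it was -0.27 ± 0.23 (n = 8) and 0.39 ± 0.31. Its slope was 0.05 per h for PC9 (adjusted p = 2.02e-06) and for PC9M2 0.04 (adjusted p = 0.00605). With time points 3 h apart the slope for PC9M2 was 0.03 (adjusted p = 0.197), and that call is lost. Over the whole course SMAD7 fell by 0.31 in PC9 (adjusted p = 0.00604), and its difference in PC9M2 was 0.15 (adjusted p = 0.19). The PC9 call is lost with time points 3 h apart (-0.21, adjusted p = 0.366), and normexp gave -0.19 (adjusted p = 0.0152).

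SMAD6 untreated ranged from 5.67 through 6.51 to 7.56 in PC9 and from 6.29 through 7.16 to 8.43 in PC9M2. With gefitinib it ranged from 5.08 through 6.39 to 7.11 and from 6.30 through 7.30 to 8.28. The mean difference with gefitinib was -0.28 for PC9 (adjusted p = 0.0617) and for PC9M2 0.00038 (adjusted p = 0.997), so that SMAD6 was the tested member without a call in either line. Its difference in PC9 changed sign over the course, from -1.20 ± 0.55 (SD, n = 3) from 2 to 4 h to 0.22 ± 0.63 (n = 12) from 13 to 24 h, with a slope of 0.07 per h (adjusted p = 9.03e-05). At 3 h spacing the slope was 0.07 with an adjusted p of 0.06, and with normexp 0.02 (adjusted p = 0.00173).

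SKIL untreated ranged from 7.99 through 9.44 to 10.61 in PC9 and with gefitinib from 8.17 through 8.94 to 9.63. It fell by 0.55 with a standard error of 0.10 (adjusted p = 9.89e-06), lower at 22 of 26 time points and on 8 of 8 scan days, and with normexp the difference was -0.35 (adjusted p = 1.19e-05). In PC9M2 the ranges were 7.35 through 8.78 to 9.75 and 7.08 through 8.70 to 9.63. The difference was -0.0014 (adjusted p = 0.992), made up of -0.85 ± 0.66 (SD, n = 3) from 0 to 1 h and 0.48 ± 0.55 (n = 8) from 5 to 12 h.

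**Figure D3:**
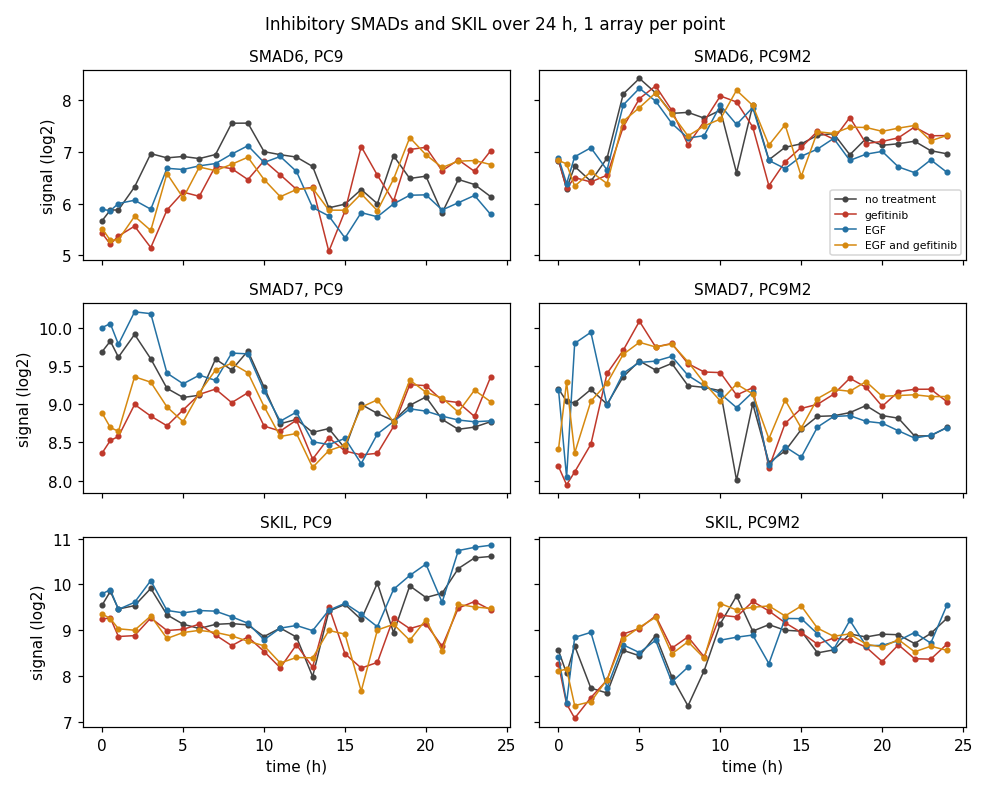
Log2 signal of SMAD6, SMAD7 and SKIL (vertical axes) against time in h (horizontal axis) in PC9 and PC9M2, 1 array per point, 4 treatments. SMAD7 with gefitinib starts below the untreated course in both lines. Later it meets that course in PC9 and lies above it in PC9M2, by a mean of 0.31 from 13 to 24 h. SKIL with gefitinib stays low in PC9.

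The gefitinib differences were compared between the lines at matched time points. limma called 6 of the 8 members, each with a more positive difference in PC9M2, beside 34% of all genes. The members were chosen with earlier results of these data known, so this share is not a test of the members. The median over all 8 tested members was 0.48, against 0.01 over all tested genes. The largest was that of ID1, 1.40 with a standard error of 0.20 (adjusted p = 2.71e-06) and the same sign at 23 of 26 time points, followed by TGFB2 with 0.86 (adjusted p = 0.00281), SKIL with 0.55 (adjusted p = 0.000964), TGFBR2 with 0.50 (adjusted p = 0.000159), SMAD7 with 0.46 (adjusted p = 3.87e-05) and ID3 with 0.29 (adjusted p = 0.0184). Among the others, TGFB1 had -0.25 (adjusted p = 0.164) and SMAD6 0.28 (adjusted p = 0.11). With time points 3 h apart 1 call was left, that of ID1. With normexp the values of TGFB2, TGFBR2 and SKIL were 0.23, 0.29 and 0.35, and TGFBR2 had 0.33 on its brighter probe.

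**Figure D4:**
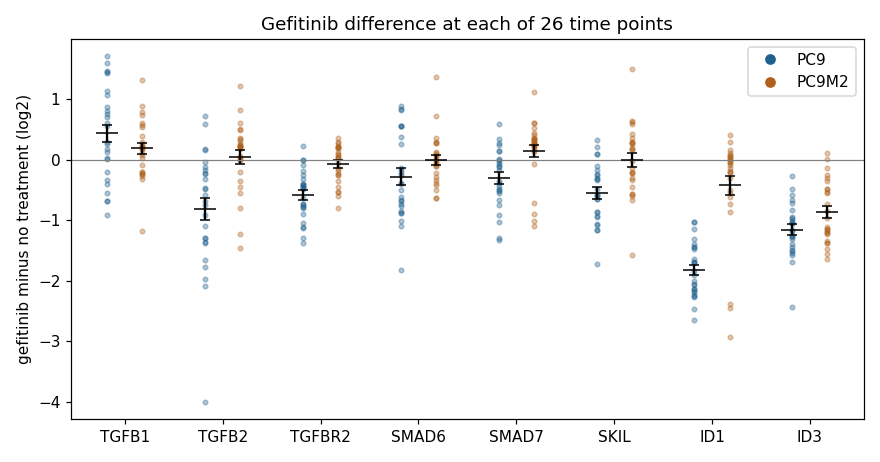
Difference between gefitinib and no treatment (log2, vertical axis) for the 8 tested members (horizontal axis) in PC9 and PC9M2. Each point is 1 of 26 time points, and bars show the mean with its standard error; ID1 in PC9 lies below 0 throughout, and the 3 lowest PC9M2 points of ID1 are those from 0 to 1 h.

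In the presence of EGF the effect of gefitinib was measured again on other arrays. In PC9 limma called 6 members, 1 higher and 5 lower, beside 78.9% of all genes. ID1 fell by 1.97 (adjusted p = 2.65e-17) and ID3 by 1.11 (adjusted p = 2.2e-12), both of them throughout the 26 time points, TGFBR2 by 0.87, SKIL by 0.73 and TGFB2 by 0.55, while TGFB1 rose by 0.57 (adjusted p = 5.21e-05). In PC9M2 it called 3 members beside 74.5% of all genes, 6 with scaling to the 75th percentile, 5 with normexp and 1 with scan day as a random block. ID1 differed by -0.53 (adjusted p = 0.029), and without the 0.5 h arrays by -0.69 (adjusted p = 0.000374). With scan day as a random block, which kept the 0.5 h arrays, the value was -0.61 (adjusted p = 0.113). ID1 was lower on 9 of 9 scan days (median -0.44, highest -0.24). With gefitinib alone it was lower on 7 of 9 (median -0.16). In the presence of EGF, ID1 in PC9M2 thus stayed below its level with EGF on each scan day. ID3 differed by -0.62 (adjusted p = 0.000193), and without those arrays by -0.71 (adjusted p = 1.48e-06). The third, SMAD6, had 0.19 (adjusted p = 0.0455) and without those arrays 0.18 (adjusted p = 0.0623), which leaves 2 calls.

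EGF itself moved the members little. Against no treatment in PC9 it gave 4 calls beside 25.6% of all genes: TGFBR2 rose by 0.26 (adjusted p = 0.002) and ID1 by 0.22 (adjusted p = 0.00159), while SMAD6 fell by 0.32 (adjusted p = 0.000204) and ID3 by 0.16 (adjusted p = 0.0047). All 4 calls are lost with unpaired courses (adjusted p of 0.296 to 0.625) and with time points 3 h apart (0.105 to 0.245). With scan day as a random block the 4 were called together with SKIL (0.18, adjusted p = 0.0407), which was higher on 8 of 8 scan days and had an adjusted p of 0.0584 without the block. In PC9M2 it gave 0 calls among the members by limma beside 9.13% of all genes, where at an unadjusted p under 0.05 TGFB1 passed (0.16, p = 0.014, and 0.16, p = 0.0169 without the 0.5 h arrays). Without the 0.5 h arrays the count was also 0. On the brighter probe of TGFBR2, well above background on all arrays, EGF in PC9M2 was called at 0.19 (adjusted p = 0.000266) in the fit over all probes, which called 8.77% of them, while the tested probe had 0.12 (adjusted p = 0.598) and with normexp 0.17 (adjusted p = 8.73e-05). On top of gefitinib, EGF gave 0 member calls in PC9 beside 0.0452% of all genes, where TGFB1 and SMAD7 had an unadjusted p of 0.0231 and 0.0112. In PC9M2 it gave 0 calls beside 3.21% of all genes, where SKIL (0.11) and ID3 (0.17) had an unadjusted p of 0.0171 and 0.0307. Without the 0.5 h arrays SKIL had 0.08 (p = 0.0308) and ID3 0.11 (p = 0.0317), and 1 member passed, ID1, which was lower with both agents than with gefitinib alone by -0.40 (adjusted p = 3.41e-06) against -0.25 (adjusted p = 0.379) with them.

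In the early window from 0.5 to 3 h, limma called 0 members and 0% of genes in either line. At an unadjusted p under 0.05 the window held 992 genes in PC9 (7.48% of all tested) and 578 in PC9M2 (4.36%). Of these genes 3 and 1 were members. In PC9 these were TGFB2 (0.50), SMAD7 (0.32) and ID1 (0.43), each higher at 4 of 4 time points, and in PC9M2 it was TGFB1 (0.29, 4 of 4 time points, and 0.34 without the 0.5 h arrays). ID1 in PC9M2 showed what the 0.5 h arrays do to this window. Its difference was -0.34 with them and 0.33 without, and 0.87 at 1 h, where the array labelled EGF had 14.52 and the untreated array 13.65. The EGF differences themselves were compared between the lines with 0 member calls beside 1.33% of all genes. There SMAD6 and ID1 had an unadjusted p of 0.0123 and 0.00243 and differences of 0.20 and -0.37, and without the 0.5 h arrays SMAD6 had 0.20 and ID1 -0.28 (adjusted p = 0.233 and 0.0586).

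Without treatment the values of the members also varied over the 24 h, a course that the paper describes as free of gefitinib, EGF and serum. Each time point had its own slide, so slide and time cannot be told apart. In PC9 7 of 8 members changed by limma's F-test of a spline beside 66.3% of all genes, TGFB2 being the member that did not pass (adjusted p = 0.185). With gefitinib 7 changed beside 77.8%, all but TGFB1 (adjusted p = 0.116). In PC9M2 all 8 tested members changed without treatment beside 67.2% of genes, and 7 with gefitinib beside 63.7%, all but TGFB1 (adjusted p = 0.394). The fitted range of ID3 in untreated cells was 2.61 in PC9M2 and 1.03 in PC9, and that of TGFB1 1.49 and 2.09. With the scan day as a random block the counts were 4 in each PC9M2 course and in PC9 with gefitinib. With time points 3 h apart, all member calls of the F-test in untreated PC9 are lost (adjusted p of 0.27 to 0.501). In untreated PC9M2 that of ID3 alone is kept (adjusted p = 0.0123).

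Between the lines, ID1, TGFB1 and SMAD6 were higher in untreated PC9M2 and ID3 and SKIL were lower, while the probes of TGFB2 disagreed. limma's two-sided test called all 8 tested members without treatment, 3 higher and 5 lower, beside 68.1% of all genes; with gefitinib 5 beside 64.9%, with EGF 7 beside 69.8% and with both agents 6 beside 67.7%. Without the 0.5 h arrays the counts were 6, 5, 7 and 6 in the same order. No slide and no scan day held both lines, so line and scan day cannot be told apart, and the PC9 arrays held 221 to 1702 saturated features against 0 in PC9M2. No member probe was saturated on any array.

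ID1 was higher in PC9M2 by 2.64 untreated (6.22-fold, standard error 0.09, adjusted p = 1.17e-20). With gefitinib the difference was 4.03 (16.4-fold, standard error 0.23, adjusted p = 2.48e-15), and both held at all 26 time points. The untreated courses did not overlap, with 11.87 as the highest PC9 and 12.78 as the lowest PC9M2 value. With EGF the difference was 2.27 and without the 0.5 h arrays 2.39, and with both agents 3.71 and 3.68. At 0 h with gefitinib it was 0.80, and at 24 h 4.85.

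TGFB1 was higher in PC9M2 by 1.34 untreated (standard error 0.13, adjusted p = 4.2e-10), 1.09 with gefitinib, 1.45 with EGF and 0.84 with both agents. SMAD6 was higher by 0.72 (standard error 0.10, adjusted p = 3.19e-07), 1.00, 0.92 and 1.03 in the same order. Without the 0.5 h arrays the EGF values were 1.504 and 0.94, and those with both agents 0.85 and 1.01. With normexp background correction the differences of TGFB1 were 0.54, 0.51, 0.63 and 0.39 and those of SMAD6 0.26, 0.32, 0.29 and 0.35 over the 4 treatments, each of them called. TGFB1 in untreated PC9M2 was the higher at 25 of 26 time points, and SMAD6 at 24 of 26.

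ID3 was lower in PC9M2 by -0.95 untreated (adjusted p = 7.33e-09, standard error 0.11), at every one of the 26 time points, -0.66 with gefitinib, -0.87 with EGF and -0.37 with both agents; without the 0.5 h arrays the last pair of values were -0.79 and -0.39. SKIL was lower by -0.83 untreated (adjusted p = 2.51e-05) and -0.997 with EGF (-0.94 without the 0.5 h arrays), where an outlier spot at 9 h left 25 time points, and its differences with gefitinib (-0.28, adjusted p = 0.136) and with both agents (-0.17, adjusted p = 0.362, and -0.14 without the 0.5 h arrays) did not pass. With normexp the untreated value was -0.48. TGFB2 on its tested probe was lower by -1.17 untreated (adjusted p = 8.72e-07), -1.29 with EGF (-1.26 without the 0.5 h arrays) and -0.48 with both agents (adjusted p = 0.0443, and 0.0653 without the 0.5 h arrays), while its difference with gefitinib was -0.31 (adjusted p = 0.257). With normexp the values untreated and with EGF were -0.30 and -0.35, and that with both agents was -0.09 (adjusted p = 0.0659), which does not pass.

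For SMAD7 and TGFBR2 the direction of the line difference varied with the treatment, and for TGFBR2 it varied with the probe. SMAD7 had -0.18 untreated (adjusted p = 0.0359; 0.0676 without the 0.5 h arrays), 0.28 with gefitinib (adjusted p = 0.0108), -0.18 with EGF (adjusted p = 0.114; -0.10 without those arrays) and 0.21 with both agents (adjusted p = 0.0169; 0.19, adjusted p = 0.0299, without them). The calls untreated and with both agents are lost with unpaired courses (adjusted p = 0.166 and 0.0649). TGFBR2 on its tested probe had -0.28 untreated (adjusted p = 0.0422, and 0.0641 without the 0.5 h arrays) and 0.22 with gefitinib (adjusted p = 0.0959). With EGF it was lower by -0.43 (adjusted p = 0.0066), and without the 0.5 h arrays by -0.42 (adjusted p = 0.00939). With both agents it had 0.26 (adjusted p = 0.0515), and 0.27 without those arrays (adjusted p = 0.049), which passes. The brighter probe of TGFBR2 had -0.06 untreated (adjusted p = 0.525), -0.04 with EGF (adjusted p = 0.639) and 0.38 with both agents (adjusted p = 0.00886) in the fits over all probes, which called 66%, 68.3% and 66.4% of them. The lower TGFBR2 level of PC9M2 untreated and with EGF thus rests on the dimmer probe, which normexp also left uncalled with EGF (-0.03, adjusted p = 0.708). ID2 is not compared between the lines, since its brighter probe was mostly not well above background in PC9M2.

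**Figure D5:**
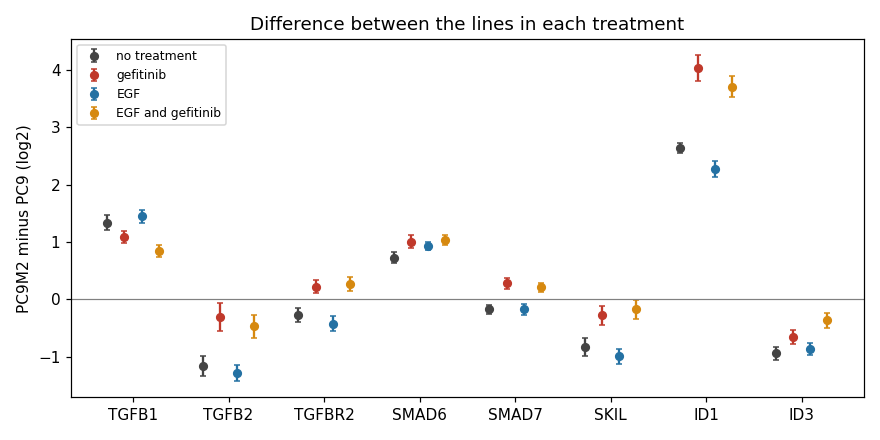
Mean difference PC9M2 minus PC9 over the matched time points (log2, vertical axis) with its standard error for the 8 tested members (horizontal axis) in each of 4 treatments. ID1 is the most positive in every treatment, at 2.64 untreated and 4.03 with gefitinib.

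The other genes of the pathway were taken from a list of 81, of which 57 were tested. Alternatives in processing and other probes were examined for the members alone, so the values of the listed genes lack these checks. With gefitinib 45 were called in PC9, 20 higher and 25 lower, with a median difference of -0.08, beside 72.3% of all tested genes. In PC9M2 41 were called, 21 higher and 20 lower, with a median of 0.08, beside 66.7% of all genes. These shares, and those of the single roles, are read against a background in which most genes were called, and the counts are not a result about the list. Of 13 tested extracellular and intracellular inhibitors 12 were called in PC9 (3 higher, 9 lower) and 11 in PC9M2 (3 higher, 8 lower). NOG, which encodes the BMP antagonist noggin, had a difference of -2.95 in PC9 (standard error 0.13, adjusted p = 6.47e-17). In PC9M2 it was -1.67 (adjusted p = 7.89e-13), and both held at all 26 time points. SMURF2, a ubiquitin ligase that acts on SMADs and receptors, fell by 1.53 and 0.91, while FSTL3, an activin antagonist, rose by 1.88 and 0.61. Between the untreated lines SKI (-1.53), PMEPA1 (1.16) and SMURF1 (-1.03) differed most in this group.

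Of 14 tested ligands 11 were called in PC9, 4 higher and 7 lower, and 9 in PC9M2, beside 72.3% and 66.7% of all genes. BMP4 was lower in both lines, with -1.87 in PC9 (adjusted p = 2.14e-13) and -0.99 for PC9M2 (adjusted p = 3.52e-14). INHBB, an activin subunit, rose by 1.40 and 0.82, and BMP7 rose by 1.32 in PC9 with 0.25 in PC9M2 (adjusted p = 0.122). Between the untreated lines 9 of the 14 ligands were called, 4 higher and 5 lower in PC9M2, with a median of 0.07, beside 68.1% of all genes. The largest differences there were those of GDF11 (-2.05), BMP7 (-1.95) and INHA (-1.29). Of 8 tested receptors 4 were called in PC9 and 5 in PC9M2. TGFBR1, the partner of TGFBR2, fell by 1.52 and 0.78, and the coreceptor TGFBR3 rose by 0.85 and 0.94. Another coreceptor, ENG, fell by 0.53 in PC9M2, with a difference of -0.0066 in PC9. Between the untreated lines TGFBR3 (-1.83), ACVR2B (1.04) and ENG (-0.89) differed most.

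Of the 7 other SMAD genes and partners 5 were called in PC9 and 4 in PC9M2, beside the same 72.3% and 66.7%. SMAD1 rose by 1.14 for PC9 (adjusted p = 4.09e-08) and for PC9M2 by 1.06 (adjusted p = 1.43e-10), and SMAD3 by 0.47 and 0.61. ZFYVE9, the receptor-SMAD anchor SARA, fell by 0.95 in PC9 with -0.05 in PC9M2. SMAD1 (-0.78), SMAD2 (0.73) and SMAD3 (0.69) differed most between the untreated lines. Of the 7 genes of latency and activation 4 were called higher and 1 lower in PC9, and 5 higher and 1 lower in PC9M2, beside 35.1% and 32.6% of all genes called higher. LTBP1 rose by 1.01 and 0.48 and LTBP3 by 0.96 and 0.46, while THBS1, which can activate latent TGF-beta, fell by 1.55 and 1.24. LTBP3 (2.17), LTBP2 (1.49) and LTBP1 (0.43) were higher in untreated PC9M2.

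All 8 tested target genes were called in PC9, 5 higher and 3 lower, and 6 in PC9M2, 5 higher and 1 lower, beside 72.3% and 66.7% of all genes. ID4, the remaining ID gene, went against ID1 and ID3. In PC9 it rose by 1.55 (adjusted p = 3.13e-16, standard error 0.07), higher at every one of the 26 time points, and in PC9M2 by 0.30 (adjusted p = 0.013), higher at 16 of them. HEY1 rose by 1.97 and 1.33 and TGFBI by 1.78 and 1.15 in the same order. CCN2 (-1.89), TAGLN (-1.58) and JUNB (-0.93) were lower in untreated PC9M2.

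The genes whose courses were most like those of the members are given as a description, by Pearson's r over all arrays after each line's mean was subtracted. The arrays share treatments and time points. ID1 was most like DUSP6 (0.87), EGR1 (0.86) and PHLDA1 (0.86), all of them growth-factor response genes. Its r with DUSP6 was 0.91 within PC9 and 0.77 within PC9M2, where it was also 0.77 without the 2 arrays that go against their labels. ID3 was most like BMP4 (0.85), METTL3 (0.83) and DDIT4 (0.82), and its r with BMP4 was 0.93 in PC9 and 0.78 in PC9M2, and 0.77 there without them. ID1 and ID3 had an r of 0.58 with each other. TGFB1 was most like TEX261 (0.83), PES1 (0.83) and BTBD2 (0.82), TGFB2 like ZNF702P (0.71), TMEM87B (0.70) and TLCD4 (0.70), and TGFBR2 like TRIB1 (0.77), MLX (0.73) and NEIL2 (0.72). SMAD6 was most like SERPINH1 (0.74), CCND3 (0.72) and MAST3 (0.71), SMAD7 like SLC37A1 (0.72), WNK1 (0.68) and LRRK1 (0.64), and SKIL like BIRC6 (0.84), BLTP3B (0.79) and THOC1 (0.78). Without those 2 arrays, the largest move among these 25 correlations over both lines was 0.019.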

How the data were processed

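Gene expression was measured on one-colour Agilent arrays (Cy3), 1 per line, treatment and time point. The authors deposited signal intensities as the scanner software wrote them, corrected for background and not normalized between arrays, and a table of intensities that proved to be the same values after quantile normalization over all arrays. Here the intensities were quantile normalized, given a floor of 1 and taken to log2; outlier spots (0.0793% of the values) were removed. Probes were named through RefSeq accessions (24794 of 41000). Of 6040 genes with over 1 probe, the most variable probe stood for the gene. Genes well above background on at least 13 of 26 arrays of a course were tested (13263; 3698 left out). The number of features well above background lay between 24464 and 35938 per array, and 1 array per time point limits the precision.

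Treatments, lines, the difference of the gefitinib effects and trends were tested with limma 3.58.1 in R 4.3.3 on differences at matched time points. Change over time was tested with limma on the values of a single course (a spline with 4 degrees of freedom), so slide and time cannot be told apart there. Benjamini-Hochberg adjustment at 0.05 was made over all tested genes. The fits were run on simulated data with independent noise. These had no correlation between neighbouring time points and no slide or scan-day effect, so they cannot show the error rates for these courses. A slide carried the 4 treatments of a line for 1 time point, each treatment always at the same slide position, so position and treatment cannot be told apart. Within a line the samples of a pair come from the same slide and time point; pairs between the lines share the time point alone. The differences of members at neighbouring time points correlated, with a median lag-1 autocorrelation of 0.49 for gefitinib in PC9 and 0.48 in PC9M2, so the p-values are too small. The random block for scan day took its correlation from every 10th gene. Alternatives were other scalings, background corrections, filters, floors, probes, tests and subsets of time points; for normexp (offset 50) the median signal was used. The alternatives without the 0.5 h and the 11 h arrays of PC9M2 were chosen after seeing the data. Named were all members, the largest gefitinib and line differences per role of the pathway list, the most alike genes and DUSP6. Members and lists were chosen with earlier results of these data known.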

Additional observations from a re-analysis of the deposited data

Results flagged for a closer look

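The gefitinib effects of 6 members differed between the lines by limma's test of the difference itself at matched time points. The same test called 34% of all tested genes. Since the members were chosen with earlier results of these data known, their share is not a test of the members. With time points 3 h apart ID1 alone among the members kept its call (adjusted p = 0.0182). The effect in PC9M2 minus that in PC9 was 1.40 for ID1 (adjusted p = 2.71e-06), 0.86 for TGFB2 (adjusted p = 0.00281), 0.55 for SKIL (adjusted p = 0.000964), 0.50 for TGFBR2 (adjusted p = 0.000159), 0.46 for SMAD7 (adjusted p = 3.87e-05) and 0.29 for ID3 (adjusted p = 0.0184), on the log2 scale.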

How the results depend on the processing

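Of 2304 values of single members under the alternatives, 2120 kept their direction and their side of the threshold, 38 gained a call, 41 turned and the rest lost the call. Of those that turned, 40 were called neither before nor after, and the other was TGFBR2 between the untreated lines, 0.078 (adjusted p = 0.391) with normexp background correction. ID1 and ID3 with gefitinib in PC9, ID3 with gefitinib in PC9M2, and ID1 and TGFB1 between the untreated lines passed under every alternative run. With normexp (offset 50), 47 of the 92 called values of members that kept their direction were smaller by over 1.5 times and 0 were larger by as much. With time points 3 h apart the members called were 0 for EGF in PC9, 2 for the trend in PC9, 0 and 4 for change over time in PC9 without and with gefitinib, 1 for gefitinib in PC9M2, 1 for EGF on top of gefitinib in PC9M2, 1 for the trend in PC9M2, 1 and 2 for change over time in PC9M2, 3 between the lines with gefitinib and 1 for the difference of the gefitinib effects; these fits had 9 time points in place of 26. With unpaired courses, the fit with no replicate block, EGF in PC9 gave 0 calls against 4, and no other count moved by over 1.5 times. With scan day as a random block 4 members changed over time in PC9 with gefitinib and in both PC9M2 courses, and 1 was called for gefitinib in PC9M2, alone and with EGF. Scaling to the 75th percentile gave 4 for gefitinib in PC9M2 and 6 in the presence of EGF, where normexp gave 5. For EGF in PC9M2 1 member passed with normexp, 1 with the probe of the highest mean (TGFBR2 in both) and 1 without the 11 h arrays (SMAD6, -0.16, adjusted p = 0.0395). A one-sided test for higher levels in PC9M2 gave 3 untreated and 3 with EGF, since it cannot call lower genes. Leaving out each early time point gave 0 to 0 calls. The share of all genes called under each alternative is not given. The counts of members under alternatives, here and above, are therefore not a result about the members. The causes of the other changes were not tested.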

Other observations

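In PC9M2 all 4 courses broke between 9 and 10 h, where the scan day also changed. Over all tested genes, the correlation of an array with the next one of its course, after the line's mean was subtracted, was 0.02 for no treatment, 0.17 for gefitinib, 0.27 for EGF and 0.17 for both agents there, against 0.74, 0.31, 0.76 and 0.56 between 8 and 9 h. The untreated array at 11 h correlated at 0.48 with the one at 10 h and 0.28 with the one at 12 h. On it ID1 had its highest untreated PC9M2 value (14.24), and so did TGFB2 (7.68), TGFBR2 (7.76) and SKIL (9.75), while TGFB1 (7.10) and SMAD7 (8.00) had their lowest.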
